A study of Mus musculus with 6 samples.

Results

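Matrix metalloproteinases (MMPs) are zinc-dependent enzymes that cut the proteins of the extracellular matrix, and tissue inhibitors of metalloproteinases (TIMPs) bind and block them. The family followed here comprised 10 genes, 7 of which encode MMPs (Mmp2, Mmp8, Mmp9, Mmp12, Mmp13, Mmp14 and Mmp19) and 3 of which encode TIMPs (Timp1, Timp2 and Timp3). They were chosen by symbol out of 30184 genes that the array annotation names with a single symbol, and each of the 10 was read by 1 probe set. Macrophages secrete several of these enzymes as inactive precursors, some are also stored in neutrophil granules or made by bone-resorbing osteoclasts, and in the injured heart they clear damaged matrix before a scar is laid down. MMP14 differs in that it is anchored in the plasma membrane, where together with TIMP2 it activates MMP2.

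The samples were bone marrow-derived macrophages (BMDMs) of male C57BL/6J mice aged 10 to 12 weeks, with 3 arrays labelled ATF3-CKO_rGAS6 and 3 labelled WT_rGAS6. ATF3-CKO mice carried a floxed Atf3 gene (Atf3 fl/fl) and a Cre recombinase expressed from Lyz2, which is active in myeloid cells, whereas WT mice were Atf3 fl/fl littermates with no Cre, so the presence of Cre and the loss of ATF3 cannot be told apart. Cells of both groups were grown in macrophage colony-stimulating factor (20 ng/ml, 5 d), treated with recombinant GAS6 (rGAS6, 100 ng/ml, 4 d), a ligand of the receptor MerTK, and exposed to hypoxia for 6 h and reoxygenation for 18 h (HR), with harvest given as 24 h after HR in the labels. The labels call the 3 samples of a group biological replicates. The comparison asked how macrophage gene expression after HR differs when ATF3, a stress-induced transcription factor of the ATF/CREB family, is missing.

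Expression was measured on Affymetrix arrays as the log2 signal of a probe set after robust multichip averaging (RMA). A difference of 1 in log2 signal is a 2-fold difference in signal, and levels of different probe sets cannot be set against each other. The array medians were 4.22 to 4.42, and 23 background control probe sets had a median of 2.77 over the arrays and a highest value of 5.10 to 5.88 per array. Arrays of one group correlated at 0.993 to 0.997 and arrays of different groups at 0.988 to 0.992. Signals are not read counts, and precision is limited by the number of arrays.

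The targeted gene went against the labels. Atf3 (TC0100003804.mm.1) read 9.20, 9.26 and 9.25 on the arrays labelled ATF3-CKO, against 8.56, 8.46 and 8.38 on the WT arrays, 1.70-fold higher (limma adjusted p = 0.00538). Which exons were deleted is not stated in the sources used here, and a probe set outside them would check nothing. For this reason the groups are called the arrays labelled ATF3-CKO and the WT arrays, and every direction given here rests on those labels. Lyz2 and Cd68, genes of macrophages, were bright on all 6 arrays, with means of 19.42 and 18.89 on the arrays labelled ATF3-CKO and 18.92 and 18.86 on the WT arrays. Lyz2, from which Cre is expressed, had a log2 difference of 0.49, with no overlap of the groups and no call (limma adjusted p = 0.0817). Whether the Lyz2 reading bears on the labels was not tested. None of 11 macrophage markers lay below the median level of all probe sets in these cells. The dimmest, Aif1, was under the brightest background control on ATF3-CKO replicate 2 and WT replicates 1 and 3.

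Of the 10 genes, 4 were lower (Mmp9, Mmp12, Mmp13 and Mmp19) and 1 was higher (Mmp14) on the arrays labelled ATF3-CKO at an adjusted p of 0.05, and 5 had no call. All 5 calls were enzymes, and none of the 3 inhibitors passed. In the background of 65956 probe sets, 1.17% were called higher and 1.68% lower, and among the 30184 genes with 1 probe set each, 1.2% were higher and 2.56% lower. Higher probe sets made up 41.1% of all calls but 25.6% when each array was centred on its median, so the balance of directions over the whole table depended on scaling. The values of the groups did not overlap for 8 of the 10 genes, against 24% of all probe sets and 32.4% of those above the median level. Between the groups, the median log2 difference was -1.35 for the 7 MMPs and 1.17 for the 3 TIMPs, beside 0.05 for all genes. The TIMP median is the value of Timp3, which had no call and was dim on the WT arrays. Positive differences were found in 3 of the 7 MMPs and 2 of the 3 TIMPs.

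**Figure D1:**
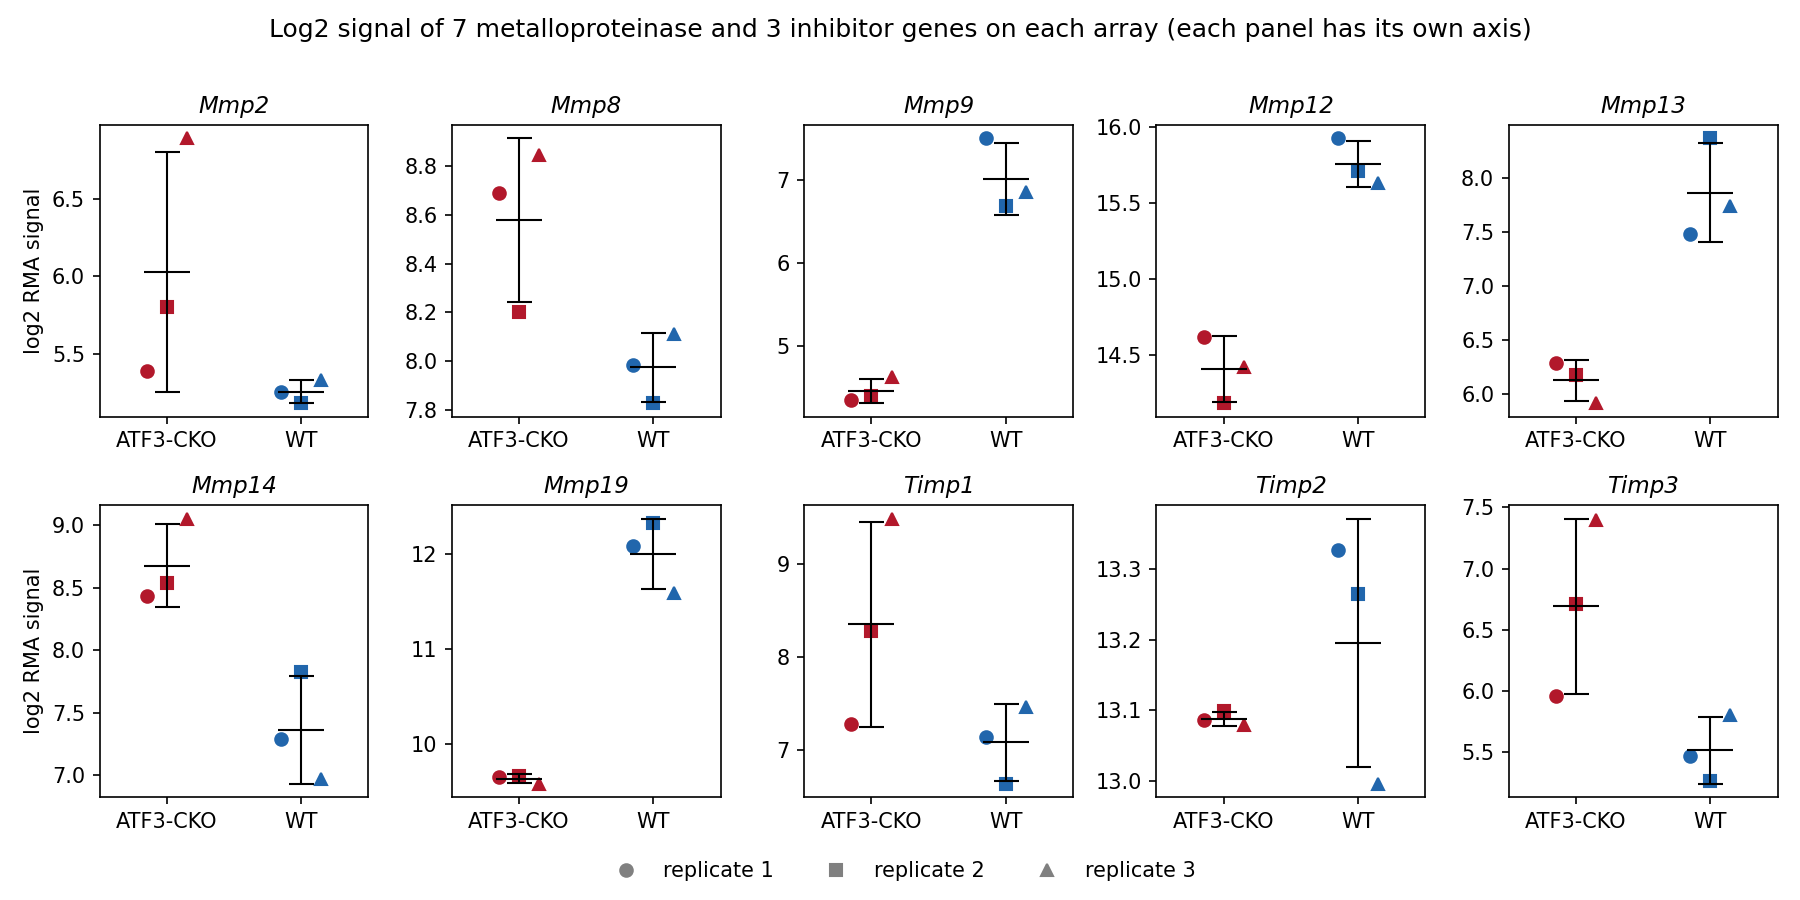
Log2 RMA signal of each of the 10 genes on every array, with the 3 arrays labelled ATF3-CKO at the left and the 3 WT arrays at the right of each panel (marker shape, replicate; line and bars, mean ± SD; each panel has its own vertical axis). Mmp9, Mmp12, Mmp13 and Mmp19 lay lower and Mmp14 lay higher on all 3 arrays labelled ATF3-CKO, while Timp1 and Timp2 overlapped.

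The gelatinases MMP9 and MMP2 cut denatured collagen and the type IV collagen of basement membranes. Mmp9, encoding gelatinase B, read 4.35, 4.40 and 4.63 on the arrays labelled ATF3-CKO and 7.51, 6.69 and 6.86 on the WT arrays. The highest of the arrays labelled ATF3-CKO was thus below the lowest WT array, and all 3 were near the median level of all probe sets (4.32) and under the brightest background control. Mmp9 averaged 4.46 ± 0.15 on the arrays labelled ATF3-CKO and 7.02 ± 0.43 on the WT arrays (SD, n = 3 each), a measured log2 difference of -2.56 (SE 0.21; limma adjusted p = 0.00199). With the arrays labelled ATF3-CKO set at their brightest background control, for a mean of 5.55, Mmp9 was at least 2.76-fold lower, and no exact fold is given. Its direction and call held in all 14 alternative analyses, with log2 differences of -2.78 to -2.31. In RNA from whole cultures, fewer cells of a type and less RNA per cell cannot be told apart.

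Mmp2, encoding gelatinase A, read 5.39, 5.81 and 6.89 on the arrays labelled ATF3-CKO, against 5.25, 5.19 and 5.34 on the WT arrays. The groups did not overlap, but replicate 3 stood above the other arrays labelled ATF3-CKO. The WT values and those of ATF3-CKO replicates 1 and 2 lay within the range of the brightest background control. The log2 difference was 0.77 (SE 0.34, 95% interval -0.04 to 1.58), with no call (limma adjusted p = 0.304). Without ATF3-CKO replicate 3 it was 0.34. The pair of gelatinases therefore had differences of opposite sign, and only that of Mmp9 passed the test.

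Mmp12 encodes macrophage elastase, which cuts elastin and is made chiefly by macrophages. It read 14.62, 14.19 and 14.43 on the arrays labelled ATF3-CKO and 15.93, 15.71 and 15.64 on the WT arrays, so that the groups were wholly apart with little spread within either. The means were 14.41 ± 0.22 on the arrays labelled ATF3-CKO and 15.76 ± 0.15 on the WT arrays (SD, n = 3 each), a log2 difference of -1.35 (SE 0.13), or 2.54-fold lower (limma adjusted p = 0.0044). Unlike Mmp9, Mmp12 was far above background on every array. Its direction and call held in all 14 alternatives, with adjusted p of 0.000951 to 0.0338.

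The collagenases MMP13 and MMP8 cut the triple helix of fibrillar collagen, and in mice MMP13 is a main collagenase of connective tissue while MMP8 is named after neutrophils. Mmp13 read 6.28, 6.18 and 5.91 on the arrays labelled ATF3-CKO and 7.48, 8.36 and 7.74 on the WT arrays. No array labelled ATF3-CKO reached the lowest WT value, and the WT arrays spread more widely. The log2 difference was -1.74 (SE 0.23), or 3.34-fold lower (limma adjusted p = 0.0116), with means of 6.12 ± 0.19 on the arrays labelled ATF3-CKO and 7.86 ± 0.46 on the WT arrays (SD, n = 3 each). The call was lost without ATF3-CKO replicate 2 (adjusted p = 0.0591) or replicate 3 (0.0664), with log2 differences of -1.77 and -1.63.

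Mmp8 read 8.69, 8.20 and 8.84 on the arrays labelled ATF3-CKO and 7.99, 7.83 and 8.11 on the WT arrays. Its groups did not overlap, although ATF3-CKO replicate 2 lay close to WT replicate 3. The log2 difference was 0.61 (SE 0.17, 95% interval 0.20 to 1.01), and it had no call (limma adjusted p = 0.125). It passed without ATF3-CKO replicate 2 (0.79, adjusted p = 0.0492) and with array weights (0.71, adjusted p = 0.0261). The measured differences of the collagenases thus had opposite signs, as those of the gelatinases did. In both classes the member that passed was lower, and the positive difference had no call.

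Mmp13, Mmp12 and Mmp8 lie in the same group of MMP genes on chromosome 9. Their promoters are shown because the measured differences of these neighbours had opposite signs, that of Mmp8 without a call. ATF3 and its partners of the JUN family bind AP-1 sites and cAMP response elements (CREs), and AP-1 sites are known in the promoters of several MMP genes. The sequences are RefSeq promoters of the GRCm38.p6 build, plus strand, 250 bases before to 50 after the annotated start. Capitals mark an AP-1 site, searched as TGACTCA, whose reverse complement is TGAGTCA. The Mmp13 promoter is at chr9:7272264-7272563, the promoter of the downstream of 2 annotated Mmp12 starts at chr9:7347124-7347423, and the Mmp8 promoter at chr9:7558179-7558478.
Mmp13: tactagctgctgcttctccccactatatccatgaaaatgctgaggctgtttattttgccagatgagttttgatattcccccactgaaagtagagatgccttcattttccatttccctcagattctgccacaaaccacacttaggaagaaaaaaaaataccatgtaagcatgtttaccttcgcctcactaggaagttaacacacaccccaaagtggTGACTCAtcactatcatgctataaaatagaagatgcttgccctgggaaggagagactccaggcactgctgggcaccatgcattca
Mmp12: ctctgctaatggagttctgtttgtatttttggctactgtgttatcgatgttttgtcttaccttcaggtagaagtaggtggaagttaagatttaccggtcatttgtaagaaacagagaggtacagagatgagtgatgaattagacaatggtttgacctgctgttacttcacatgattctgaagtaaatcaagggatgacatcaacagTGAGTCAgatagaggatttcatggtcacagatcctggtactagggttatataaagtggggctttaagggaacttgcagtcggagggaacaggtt
Mmp8: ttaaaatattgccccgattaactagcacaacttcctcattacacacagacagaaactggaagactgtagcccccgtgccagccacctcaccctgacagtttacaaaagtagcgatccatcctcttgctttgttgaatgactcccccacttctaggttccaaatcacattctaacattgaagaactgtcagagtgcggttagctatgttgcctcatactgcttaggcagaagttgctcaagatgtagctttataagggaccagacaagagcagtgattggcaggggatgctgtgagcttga

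The AP-1 letters begin 35 bases before the start of Mmp13 and 44 bases before the downstream start of Mmp12. They were not found in this window of Mmp8, nor in those of the upstream Mmp12 start, Mmp14, Timp1, Timp2 and Timp3. Of 8 promoters matched to 7 of the 10 genes, 2 held the AP-1 letters, against 5.2% of 32851 promoters in the table, and none held the CRE letters TGACGTCA, against 1.79%. Mmp2, Mmp9 and Mmp19 were not matched. A match is a description of the letters, not of binding, and these letters were searched in both directions.

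The other MMP genes of the chromosome 9 group showed which of these neighbours carried signal. In the order Mmp13, Mmp12, Mmp1b, Mmp3, Mmp1a, Mmp10, Mmp8, Mmp27, Mmp20 and Mmp7, calls fell on the first pair, which were lower, and on Mmp27, which was higher. Mmp27 read 10.53, 9.49 and 9.72 on the arrays labelled ATF3-CKO and 7.96, 8.20 and 7.25 on the WT arrays, with no overlap. Its log2 difference was 2.11 (SE 0.33), or 4.31-fold higher (limma adjusted p = 0.0227), and the call was lost when WT replicate 1 or either of ATF3-CKO replicates 2 and 3 was left out. The promoter of Mmp27 was not among those read above, so the AP-1 letters are not compared with this higher neighbour. Mmp1b, Mmp3, Mmp1a, Mmp10, Mmp20 and Mmp7 had group means of 3.10 to 4.34 and no call. Mmp8, between Mmp10 and Mmp27, had the positive difference without a call given above.

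**Figure D2:**
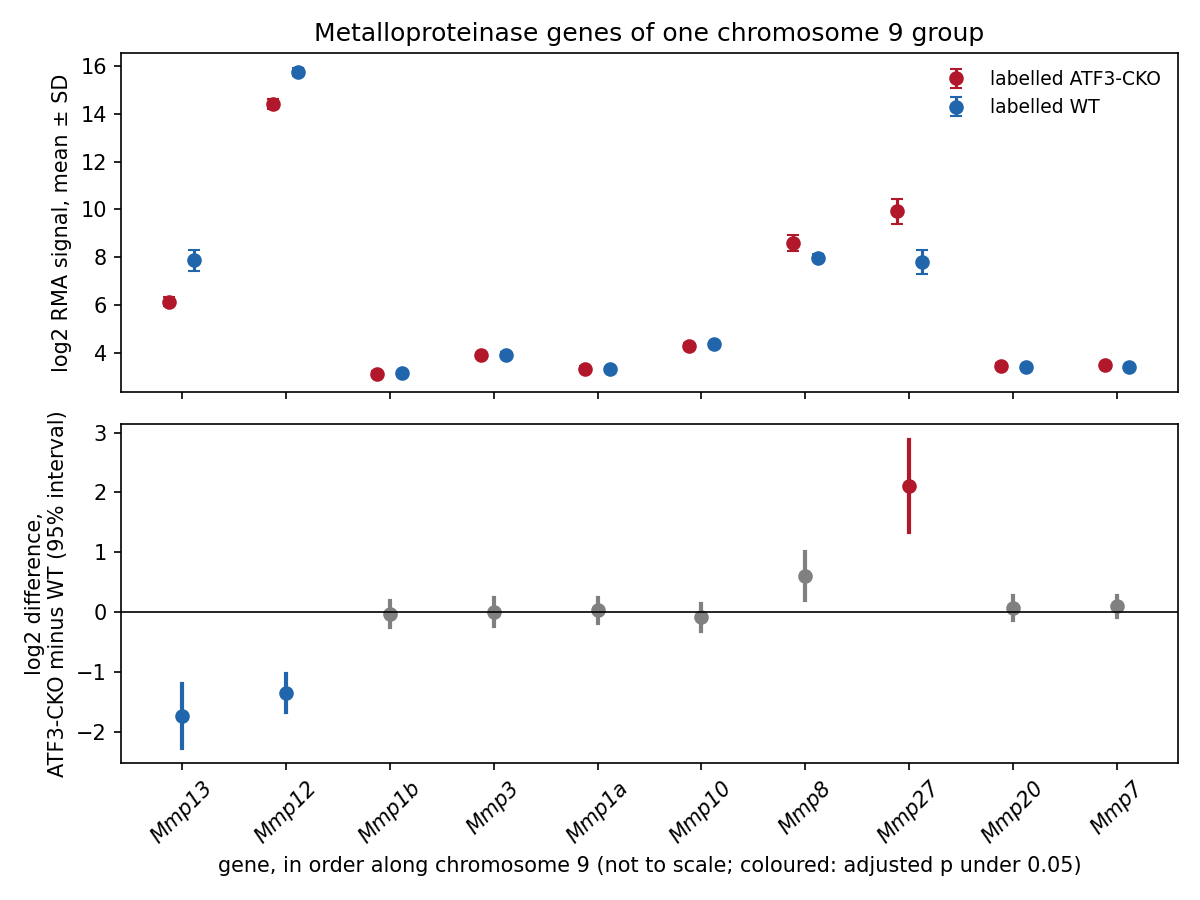
MMP genes of the chromosome 9 group in their order along the chromosome (not to scale), with mean ± SD log2 signal of the arrays labelled ATF3-CKO and the WT arrays (upper plot) and the log2 difference, ATF3-CKO minus WT, with its 95% interval (lower plot; coloured points passed an adjusted p of 0.05). Mmp13 and Mmp12 at one end were lower, Mmp27 was higher, and the 6 genes with means of 3.10 to 4.34 had no call.

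MMP14, or membrane-type 1 MMP, cuts collagen at the cell surface and activates pro-MMP2. Mmp14 read 8.44, 8.54 and 9.06 on the arrays labelled ATF3-CKO and 7.29, 7.83 and 6.97 on the WT arrays. It was the only one of the 10 genes called higher, with all arrays labelled ATF3-CKO above all WT arrays. It averaged 8.68 ± 0.33 on the arrays labelled ATF3-CKO and 7.36 ± 0.43 on the WT arrays (SD, n = 3 each), a log2 difference of 1.32 (SE 0.25), or 2.49-fold higher (limma adjusted p = 0.0422). The direction held in all 14 alternatives (1.12 to 1.55), but the call was lost in 8. These included quantile normalization (limma adjusted p = 0.0608), median-centring (0.0751) and the replicate number as a block (0.0787). The call was also lost without WT replicate 1 (0.137), WT replicate 3 (0.0625) or any array labelled ATF3-CKO (0.0725, 0.122 and 0.134 for replicates 1, 2 and 3).

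MMP19 is a secreted enzyme that cuts components of basement membranes. Mmp19 read 9.66, 9.67 and 9.59 on the arrays labelled ATF3-CKO and 12.09, 12.33 and 11.60 on the WT arrays. The arrays labelled ATF3-CKO were nearly level, and the lowest WT array stood far above them. The means were 9.64 ± 0.05 and 12.01 ± 0.37 for the arrays labelled ATF3-CKO and the WT arrays (SD, n = 3 each), a log2 difference of -2.37 (SE 0.18), or 5.16-fold lower. Its adjusted p of 0.00134 (limma) was the smallest among the 10 genes, and it passed in all 14 alternatives (0.000193 to 0.0147).

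**Figure D3:**
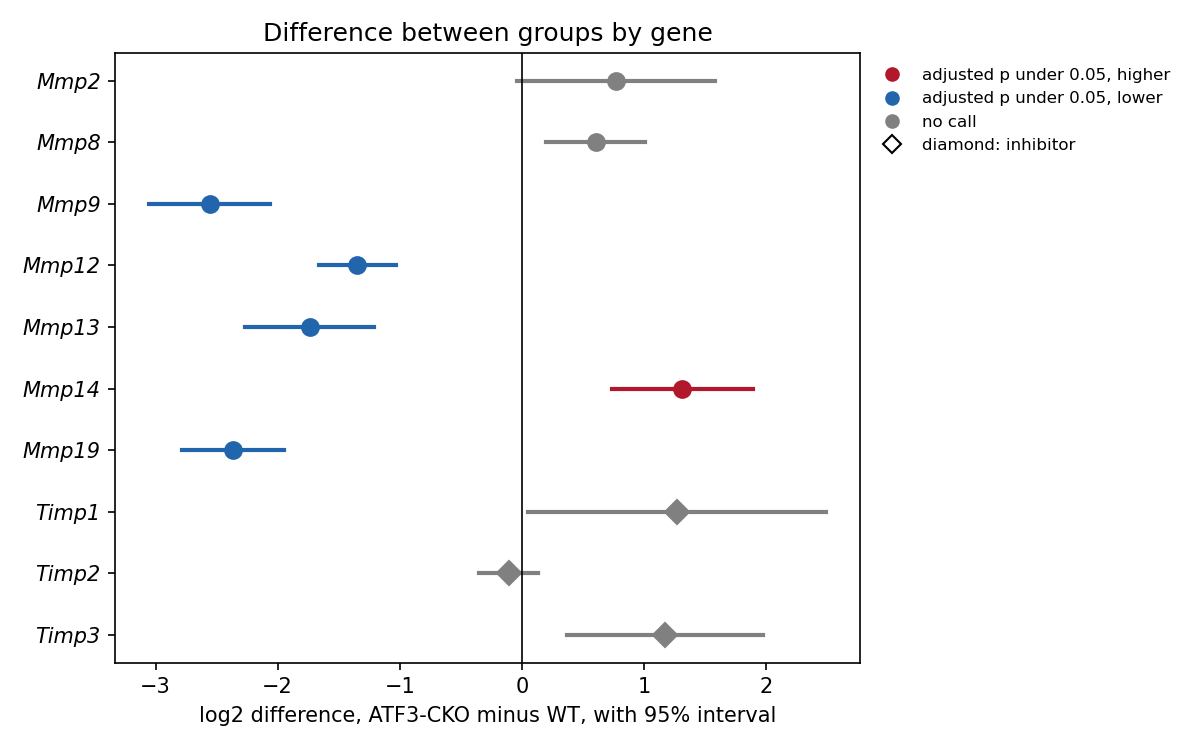
Log2 difference, ATF3-CKO minus WT, of each of the 10 genes with its 95% interval (3 arrays per group; circles, MMPs; diamonds, TIMPs; blue and red, lower and higher at an adjusted p of 0.05; grey, no call). The 4 lower MMPs had differences of -2.56 to -1.35, Mmp14 had 1.32, and the intervals of Mmp2 and Timp2 included 0.

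The inhibitors had no call in either direction. TIMP1 is an inducible, soluble inhibitor that also binds pro-MMP9. Timp1 read 7.28, 8.28 and 9.49 on the arrays labelled ATF3-CKO and 7.14, 6.63 and 7.46 on the WT arrays. The groups overlapped, since ATF3-CKO replicate 1 lay below WT replicate 3, and the arrays labelled ATF3-CKO differed widely among themselves (SD 1.11, against 0.42 for the WT arrays). The log2 difference was 1.27 (SE 0.52, 95% interval 0.05 to 2.49; limma adjusted p = 0.26). Leaving out ATF3-CKO replicate 3 gave 0.70, and leaving out ATF3-CKO replicate 1 gave 1.81.

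TIMP3 is held in the matrix and also inhibits ADAM17, the sheddase of tumour necrosis factor. Timp3 read 5.96, 6.71 and 7.40 on the arrays labelled ATF3-CKO and 5.47, 5.27 and 5.81 on the WT arrays. Its groups were apart by a small margin, with ATF3-CKO replicate 1 just above WT replicate 3. The WT values lay within the range of the brightest background control. The log2 difference was 1.17 (SE 0.34, 95% interval 0.37 to 1.97) and did not pass (limma adjusted p = 0.13). It passed without ATF3-CKO replicate 1 (1.54, adjusted p = 0.0458) and with array weights (1.40, adjusted p = 0.0433).

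TIMP2, the inhibitor that takes part in activation of MMP2, was the steadiest of the family on the arrays labelled ATF3-CKO. Timp2 read 13.09, 13.10 and 13.08 on those arrays and 13.33, 13.26 and 12.997 on the WT arrays. The groups overlapped, and the log2 difference of -0.11 (SE 0.10) had a 95% interval of -0.35 to 0.14 (limma adjusted p = 0.655).

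All 5 genes with positive differences (Mmp2, Mmp8, Mmp14, Timp1 and Timp3) had their highest value on ATF3-CKO replicate 3. Fibroblasts are a known source of several of them, Mmp2, Mmp14, Timp1 and Timp3 included, so fibroblast markers were read beside them. The summed linear signal of 11 measured fibroblast markers was 424, 577 and 1047 on the arrays labelled ATF3-CKO and 397, 336 and 465 on the WT arrays. The sum was thus also highest on ATF3-CKO replicate 3, where 6 of the 11 markers had their highest value of the 6 arrays. None of the 11 markers passed the test, those with the smallest p being Dpt (0.37, limma adjusted p = 0.0849) and Postn (-0.61, 0.0952). Dcn, Col1a1 and Col1a2, picked after their values were seen as bright markers that peak on that array, had log2 differences of 1.33, 0.97 and 0.87 and no call (adjusted p = 0.153, 0.276 and 0.308). Dcn, a matrix proteoglycan, read 6.46, 7.08 and 8.26 on the arrays labelled ATF3-CKO and 5.85, 5.81 and 6.17 on the WT arrays. Of the 11 markers, 4 lay below the median level of all probe sets. Lum was 1 of these, at 3.53 ± 0.03 on the arrays labelled ATF3-CKO and 3.50 ± 0.06 on the WT arrays (SD, n = 3 each). Without ATF3-CKO replicate 3 the differences of Mmp2, Mmp8, Mmp14 and Timp3 were 0.34, 0.47, 1.13 and 0.82, and the part of the fibroblast signal in these results was not tested.

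Neutrophils and osteoclasts also make several of the lower enzymes, MMP9 among them. The summed signal of 14 neutrophil markers was 3314 to 14547 on the arrays labelled ATF3-CKO and 114796 to 183178 on the WT arrays. 6 of these markers were called lower and none higher (Ltf, Lcn2, Ngp, S100a8, S100a9 and Camp), with log2 differences of -5.13 for Ltf and -0.88 for Camp at the ends of their range. The count was 3 when WT replicate 1 or ATF3-CKO replicate 2 was left out. Of the markers without a call, Retnlg (-0.98, limma adjusted p = 0.0589) and Csf3r (0.76, 0.102) had the smallest p. Csf3r was 1 of 2 markers among the 14 with a positive difference. The early granule genes Elane, Mpo and Prtn3 had means of 3.45, 3.83 and 4.15 on the arrays labelled ATF3-CKO and 3.46, 3.75 and 4.25 on the WT arrays, below the median level of all probe sets. Mmp8, which is named after neutrophils, had a positive difference on the same arrays. The summed signal of 10 osteoclast markers was 335880 to 381023 on the arrays labelled ATF3-CKO and 414566 to 471163 on the WT arrays, of which Atp6v0d2, a proton pump subunit with no call (limma adjusted p = 0.154), made up 98.3% to 99.7%. The mean log2 signal of the 10 markers was 6.91 to 6.96 on the arrays labelled ATF3-CKO and 7.88 to 8.14 on the WT arrays. Among the other 9, 4 were called lower (Acp5, Ctsk, Itgb3 and Car2). Of these, Car2 was under the brightest background control on all 3 arrays labelled ATF3-CKO. Dcstamp (-0.24, limma adjusted p = 0.351) and Nfatc1 (0.16, 0.405) had no call. Nfatc1 had means of 8.62 on the arrays labelled ATF3-CKO and 8.47 on the WT arrays, with no overlap. Calcr, Ocstamp and Oscar were dim, with means of 3.36 to 3.44 in both groups. Whether these markers have a part in the lower Mmp9, Mmp12, Mmp13 and Mmp19 signal was not tested.

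**Figure D4:**
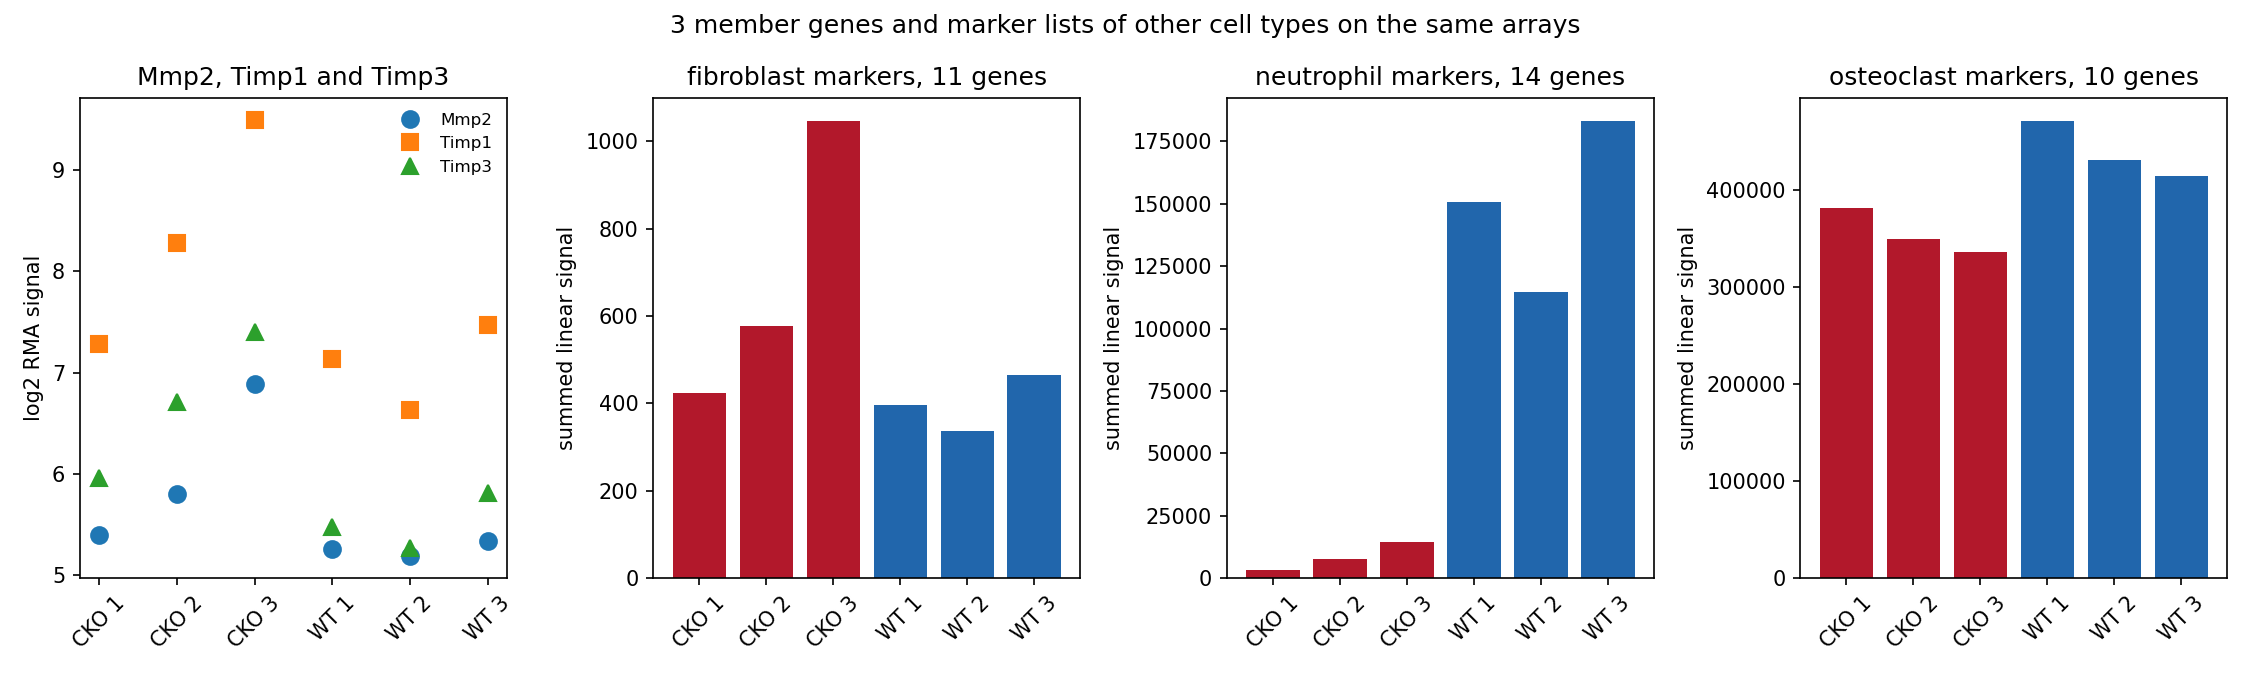
Log2 signal of Mmp2, Timp1 and Timp3 (left panel) and the summed linear signal of 11 fibroblast, 14 neutrophil and 10 osteoclast markers (bars, each from 0) on each of the 3 arrays labelled ATF3-CKO (CKO 1 to 3) and the 3 WT arrays (WT 1 to 3). The 3 genes and the fibroblast sum were highest on CKO 3, and the neutrophil and osteoclast sums were lower on all arrays labelled ATF3-CKO, the osteoclast sum being almost wholly Atp6v0d2, which had no call.

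Among macrophage markers the summed signal of 11 genes was 1284500 to 1424100 on the arrays labelled ATF3-CKO and 1048730 to 1282770 on the WT arrays. Mertk and Cd14 were called higher and Itgam, the CD11b integrin chain, was called lower, with log2 differences of 1.36, 1.08 and -3.63 (limma adjusted p = 0.0499, 0.0225 and 0.000128). Both higher calls were lost with median-centring, or when ATF3-CKO replicate 1 or 3 was left out. Csf1r, the receptor for macrophage colony-stimulating factor, had a log2 difference of -0.11 and no call. Endothelial markers had sums of 1068 to 1234 on the arrays labelled ATF3-CKO and 694 to 935 on the WT arrays. The sum followed Kdr, encoding a receptor of endothelial growth signals (log2 difference 3.08), whereas the median log2 difference of the list was -0.11. Of these 8 genes, Kdr was called higher and Cdh5 and Vwf lower, and both lower calls were lost when WT replicate 1 or any one array labelled ATF3-CKO was left out. Cdh5 was under the brightest background control on all 3 arrays labelled ATF3-CKO.

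The enzymes were then set against an inhibitor on the same array, for 3 pairs of known partners. A constant added to all log2 values of an array cancels in a log2 enzyme signal minus a log2 inhibitor signal, and because the probe sets differ, only its difference between groups can be read. Mmp9 minus Timp1 was -2.93, -3.88 and -4.87 on the arrays labelled ATF3-CKO and 0.37, 0.05 and -0.61 on the WT arrays. The groups were far apart, with a measured difference of -3.83 and means of -3.89 ± 0.97 on the arrays labelled ATF3-CKO and -0.06 ± 0.50 on the WT arrays (SD, n = 3 each; two-sided exact permutation p = 0.1, 0.15 adjusted over 3 pairs). Mmp9 was under the brightest background control on the arrays labelled ATF3-CKO, so it was set at that control there. The difference was then -2.74, or 6.68-fold lower. This bounds the Mmp9 part only, since Timp1, which had no call, was taken as measured. Without ATF3-CKO replicate 3 the measured difference was -3.34. With 3 arrays against 3, a two-sided exact test cannot go below p = 0.1, so no pair could pass.

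Mmp14 minus Timp2 was -4.65, -4.56 and -4.02 on the arrays labelled ATF3-CKO and -6.04, -5.44 and -6.03 on the WT arrays. It was higher on every array labelled ATF3-CKO, by a mean of 1.42, or 2.68-fold (exact permutation p = 0.1, adjusted 0.15). Mmp2 minus Timp2 was -7.69, -7.29 and -6.19 on the arrays labelled ATF3-CKO and -8.07, -8.08 and -7.66 on the WT arrays. Here the groups overlapped, since ATF3-CKO replicate 1 lay just below WT replicate 3, and the mean difference was 0.88 (exact permutation p = 0.2, adjusted 0.2). Without ATF3-CKO replicate 3 it was 0.44.

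**Figure D5:**
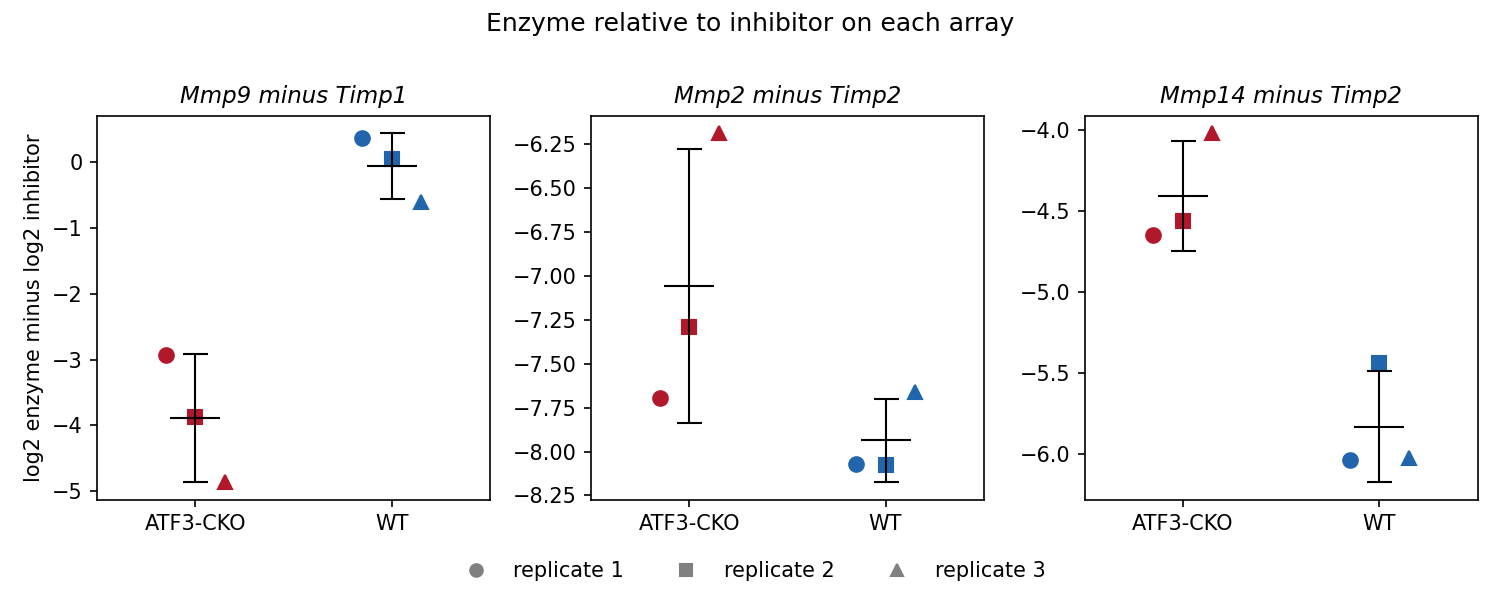
Log2 signal of an enzyme minus that of an inhibitor on each array, for Mmp9 and Timp1, Mmp2 and Timp2, and Mmp14 and Timp2 (3 arrays labelled ATF3-CKO at the left and 3 WT arrays at the right of each panel; line and bars, mean ± SD; each panel has its own axis). Mmp9 minus Timp1 was -4.87 to -2.93 on the arrays labelled ATF3-CKO and -0.61 to 0.37 on the WT arrays, whereas Mmp14 minus Timp2 was higher on the arrays labelled ATF3-CKO.

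The rest of the family carried little signal. Besides Mmp27, 15 of the 16 other measured MMP and TIMP genes had no call, among them Mmp16 (0.13, limma adjusted p = 0.553) and Mmp7 (0.10, 0.557), and the median difference of the 16 was 0.05, as over all genes. Of 15 measured ADAM and ADAMTS genes, which encode the related membrane-bound and secreted metalloproteinases, none passed by limma, while at an unadjusted p of 0.05 the counts were 1 higher and 0 lower. Adam17, the sheddase that TIMP3 inhibits, had a log2 difference of 0.21 (adjusted p = 0.267) and Adamts1, which cuts proteoglycans, one of -0.19 (0.317). Calls in the MMP and TIMP family were therefore on Mmp9, Mmp12, Mmp13, Mmp14, Mmp19 and Mmp27.

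Plasmin, made from plasminogen by urokinase, activates several pro-MMPs. Of 11 measured genes of plasminogen activation and its serpin inhibitors, 1 was lower and none higher. This was Plaur, the urokinase receptor, at 11.95, 11.84 and 12.09 on the arrays labelled ATF3-CKO and 13.29, 12.79 and 12.70 on the WT arrays, 1.95-fold lower (limma adjusted p = 0.0304, lost without any one of the arrays labelled ATF3-CKO). Plau, urokinase itself, had a log2 difference of 0.53 and no call (adjusted p = 0.123), and Serpinh1, a collagen chaperone, had 0.24.

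Cathepsins are proteases that break down matrix in lysosomes or in an acid pocket beneath the cell, and cystatins and stefins inhibit them. Of 14 measured genes, 4 were lower and 1 higher, with a median log2 difference of -0.21. Ctsk, the collagen-cutting cathepsin K, read 8.59, 8.63 and 8.73 on the arrays labelled ATF3-CKO and 11.53, 11.05 and 11.32 on the WT arrays, 6.29-fold lower (limma adjusted p = 0.000273). Ctsl, cathepsin L, was 2.61-fold lower (adjusted p = 0.00168), with means of 17.23 ± 0.18 on the arrays labelled ATF3-CKO and 18.62 ± 0.06 on the WT arrays (SD, n = 3 each). The lower members also included the inhibitors Stfa2 (-1.69, adjusted p = 0.0137) and Cst3, cystatin C (-0.72, 0.0345), so that proteases and inhibitors both fell, although Stfa2 was under the brightest background control on 2 of the 3 arrays labelled ATF3-CKO. Ctsc, which activates granule serine proteases, was 3.03-fold higher (adjusted p = 0.0144), a call lost without WT replicate 1 or ATF3-CKO replicate 3, and Stfa1 (-1.02) and Ctss (-0.32) did not pass (adjusted p = 0.109 and 0.11). Leaving out WT replicate 1 or ATF3-CKO replicate 2 reduced the lower genes to 2.

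Cell surface proteins that hold, guide or take up MMPs and collagen had 3 lower genes and none higher among 15. Sdc1, the proteoglycan syndecan-1, read 6.75, 7.01 and 6.91 on the arrays labelled ATF3-CKO and 10.09, 9.47 and 9.72 on the WT arrays, 7.32-fold lower (limma adjusted p = 0.000426). Itgb3, the integrin β3 chain, was 7.33-fold lower (adjusted p = 0.00192), and Lrp1, an endocytic receptor that clears MMPs, was 1.89-fold lower (0.0246). Mrc1, a collagen-binding mannose receptor, and Sdc4 had no call, with log2 differences of -0.40 and 0.25. Of 19 measured genes of matrix components and crosslinking, 1 passed, Tgfbi, a secreted matrix protein that was 2.68-fold lower (adjusted p = 0.00633), while Lamc1, a laminin chain (0.43, adjusted p = 0.0677), and F13a1, a transglutaminase (0.19, 0.234), did not.

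Transcription factors that act at MMP promoters, and cytokines that induce MMPs, had calls toward higher levels only, in small numbers. Of 13 measured transcription factor genes, of the AP-1, ETS and NF-κB families with Mitf and Nfatc1, 2 were higher and none lower. Ets2 read 7.58, 7.54 and 7.71 on the arrays labelled ATF3-CKO and 6.31, 6.22 and 6.30 on the WT arrays, 2.52-fold higher (limma adjusted p = 0.000664), and Batf, an AP-1 family member, had a log2 difference of 0.66 (0.0222) and was under the brightest background control on 1 of the 3 arrays labelled ATF3-CKO and 2 of the 3 WT arrays. Mitf (0.59) and Fos (-0.66), the AP-1 partner of JUN, did not pass (adjusted p = 0.193 and 0.201). Of 12 cytokine genes, Il1a, encoding interleukin-1α, passed, at 9.68, 9.53 and 9.77 on the arrays labelled ATF3-CKO and 8.37, 8.06 and 8.39 on the WT arrays, 2.61-fold higher (adjusted p = 0.00229), and Tgfb1 (0.60, 0.113) and Il6 (0.65, 0.254) did not. Il6 was under the brightest background control on every array. Of the transcription factors, 1 was higher with median-centring, and 1 when WT replicate 1 or either of ATF3-CKO replicates 1 and 3 was left out. Leaving out WT replicate 2 raised the cytokine count to 2.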

How the data were processed

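RNA from rGAS6-treated BMDMs after HR was hybridised to 6 arrays, named Affymetrix Clariom D mouse in the labels and Clariom S in the study's methods. Per the labels, the authors made log2 values from the scans by RMA (background correction, normalization between arrays, summary per probe set) in Affymetrix Expression Console. Global scaling is added in the methods of the study. The genome build, the annotation and the version of Expression Console were not given in the sources used here. Of 72688 deposited probe sets on the log2 scale, 6732 controls were left out and 65956 tested (values of 1.79 to 19.93). No detection calls were used.

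Samples were grouped by their labels. Each probe set was fitted with limma 3.58.1 in R 4.3.3 (functions lmFit and eBayes, two-sided p, group as the only term, ATF3-CKO minus WT), with Benjamini-Hochberg adjustment across the 65956 probe sets and a threshold of 0.05. Adjusted p-values of genes come from this limma fit unless an alternative is named. A gene was represented by the probe set with exactly 1 symbol and the highest mean: 30646 probe sets had 1 symbol, 2168 several and 33142 none.

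The 10 genes, the gene lists (160 of 174 list genes measured) and the marker lists were chosen with earlier results of these data known. Named genes are Atf3, the 10 genes, the called genes of each list, and up to 2 others per list with the smallest p. Further genes (Lyz2, Cd68, Csf1r and dim markers) were named to describe the cells. Enzyme and inhibitor pairs were compared by an exact permutation test over arrays. Alternatives were quantile normalization, median-centring, filters on level or symbol, a replicate block, eBayes with trend and robust settings, array weights, the mean of a gene's probe sets, and leaving out each array.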

Additional observations from a re-analysis of the deposited data

How the results depend on the processing

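The count of the 10 genes called higher was 1. It was 0 with quantile normalization, with arrays centred on their median and with the replicate number as a replicate block. It was 3 with array weights (Mmp8, Mmp14 and Timp3), and 0 to 1 when each array was left out. Where it was 1, the gene was Mmp14 without WT replicate 2, Timp3 without ATF3-CKO replicate 1 and Mmp8 without ATF3-CKO replicate 2. The count called lower was 4 and stayed at 4, except for 3 without ATF3-CKO replicate 2 or 3, when Mmp13 lost its call. The cause of these shifts was not tested, although a fit without an array has fewer samples. No difference of the 10 genes changed sign in the 14 alternatives, and no enzyme minus inhibitor difference did with quantile normalization or when an array was left out. Same-numbered arrays did not deviate together (correlations of 0.03, -0.09 and -0.07, and 0 of 3 numbers with every array closest to its own), so the numbers were not taken to pair the samples; the replicate block gave 515 higher and 769 lower probe sets, against 773 and 1108, and ended the call of Mmp14 (limma adjusted p = 0.0787). Over all probe sets, median-centring gave 447 higher and 1297 lower, array weights 3119 and 2284, and leaving out an array 141 to 982 and 402 to 1044. Dim signal limits Mmp9 on the arrays labelled ATF3-CKO and Timp3 on the WT arrays. It also limits Mmp2 on the WT arrays and on ATF3-CKO replicates 1 and 2. Those values lay near the background controls, so the sizes of these differences are uncertain. With 3 arrays per group, the 5 genes without a call are not shown to be level. Among the quoted list genes without a call, Il6, Adamts1, F13a1, Dpt and Serpinh1 were under the brightest background control on every array. The sizes of their differences are uncertain too.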
